A study of Mus musculus with 16 samples.

Results

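The comparison described here set neural retinas of wild-type mice exposed to 2500 lux (3 arrays) against neural retinas of wild-type mice exposed to 50 lux (2 arrays). Its 5 arrays were chosen by genotype and light dose from the 16 arrays of the series, which further covers wild-type mice at 5000 lux and, at all 3 doses, knockout mice deficient in Nxnl1, the gene of the rod-derived cone viability factor. All animals were BALB/c, an albino strain, 11 to 16 weeks old and of both sexes. They were kept in the dark for 16 h, lit for 1 h by white fluorescent lamps and returned to the dark for 24 h before the retina was taken free of the pigment epithelium. Animals were raised under 50 lux, so the 50 lux group also carried the dark adaptation and the lamp exposure, at the light level of the cage. Each array gave 1 intensity per probe set, and levels below are log2 of that intensity. The labels call the arrays biological replicates and leave unsaid whether animals were pooled. The p-values measure only the spread between arrays within groups, taken over all 16 arrays and 6 groups of the series.

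Intense light damages photoreceptors, the sensory neurons that carry rhodopsin or cone opsins in stacked outer segment discs. Müller glia, which span the retina and keep its ions, transmitters and metabolites in balance, answer such injury with cytokine signalling and a change of their cytoskeleton. Ligands of the interleukin 6 family act through the shared receptor gp130 on STAT3, and their pathway is known for a protective response of stressed photoreceptors and glia. In RNA of a whole retina, fewer cells of a type and less RNA per cell cannot be told apart.

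Of 10916 genes tested, each by its brightest probe set, 975 rose (8.93%) and 560 fell (5.13%) at an adjusted p under 0.05 in limma. Over all genes the median log2 change was 0.04. The median among the genes that rose was 0.88, and among those that fell it was -0.73. With values below log2 4 raised to 4, since dim levels are only bounds, 362 of the risen genes and 112 of the fallen genes differed by 2-fold or more, 113 and 5 by 4-fold or more, and 31 and 0 by 8-fold or more. Without replicate 1 of the 50 lux group 497 genes rose and 171 fell, and without replicate 2 the counts were 474 and 287. These 2 arrays carry the whole reference. A gene is therefore said to have held where it passed the threshold, its 50 lux and 2500 lux arrays did not overlap, and it passed again with the same sign when each of the 5 arrays was left out in turn. Groups that did not overlap were by themselves common (45.3% of genes). In all 372 rises (3.41% of the genes tested) and 136 falls (1.25%) held, with median log2 changes of 1.57 and -1.08. All genes named below as having risen or fallen held unless it is said otherwise, and no 50 lux array of a held gene overlapped the 2500 lux arrays.

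The direction of change went with the brightness of the probe set at 50 lux, which depends on the probe as well as on the amount of RNA. Among 384 genes whose mean at 50 lux was at or below log2 4, 34.9% rose and 0.26% fell. Among 295 genes above log2 12, 2.37% rose and 16.3% fell. In the 4 classes between, the share that rose went from 13.2% to 4.24% and the share that fell from 2.59% to 10.6%. Dim genes passed the filter on low values only if other arrays of the series were brighter. The share of rises in the dimmest class is therefore partly set by that filter. The same holds for each gene list below with members at or below log2 4 on both 50 lux arrays. The change is also taken from the same 50 lux mean that sets the class. Noise in those 2 arrays thus tilts dim classes to rises and bright classes to falls in advance, and its part was not tested.

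**Figure D1:**
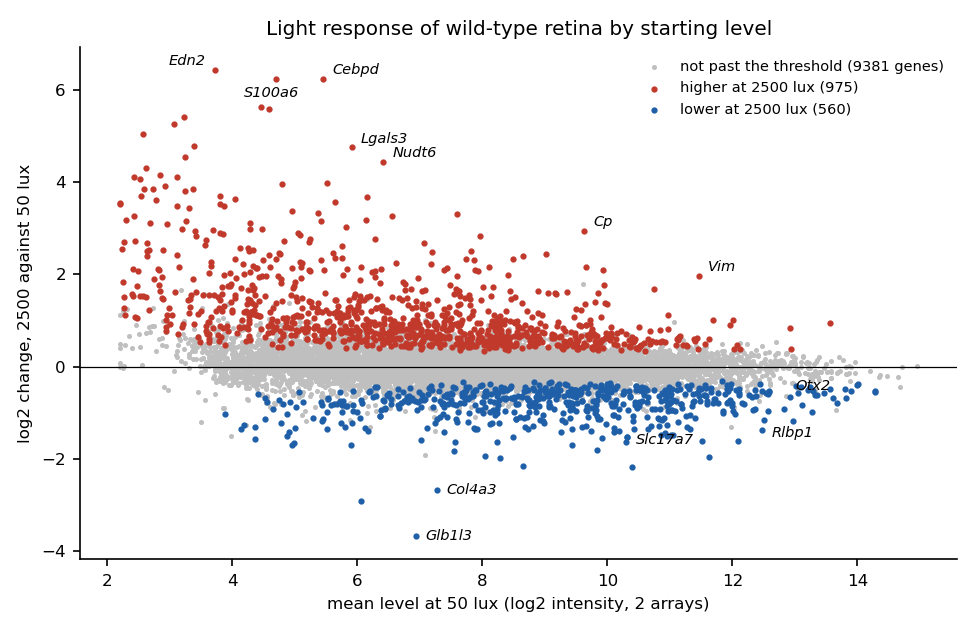
Each point is 1 gene, with its mean level at 50 lux (log2 intensity, 2 arrays) on the x axis and its log2 change at 2500 lux on the y axis; red points passed as higher (975), blue points as lower (560) and grey points did not pass. Large rises start mostly from dim genes at the left, and the falls sit among brighter genes. Lowest among the falls are Glb1l3 (-3.67), Mir670hg (-2.9) and Col4a3 (-2.67).

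On the 50 lux arrays 103 genes lay at or below log2 4 and on all 3 arrays at 2500 lux above it, and 88 of these passed the threshold. The reverse pattern was seen in 19 genes, of which 15 passed. In 17 genes the 2500 lux arrays all lay above log2 6, among them Bcl3, Bst2, Cfi, Edn2, Gbp6, Irf7, Nupr1, Serping1, Tagln2, Tnnt2 and Tubb6. For such genes the level at 50 lux is only a bound, and folds are given as lower bounds against log2 4.

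Of 26 measured genes of gp130 cytokines, receptors and STAT feedback 11 rose (42.3%, against 8.93% of all genes) and 1 fell, and 7 of the rises held. The median of the list was 0.16, so the change lay in part of its members. Osmr, the receptor subunit for oncostatin M that pairs with gp130, had log2 levels of 5.94 and 5.36 at 50 lux and of 8.75, 9.12 and 9.77 at 2500 lux (11.8-fold, log2 3.56, SE 0.27, adjusted p = 2.4e-06). Stat3, the transcription factor downstream of gp130, went from 8.61 and 8.69 to 10.78, 11.02 and 11.36 (5.28-fold, log2 2.40, SE 0.19, adjusted p = 3.1e-06). Receptor and factor were both higher on every 2500 lux array, as is required of held rises. The inhibitors of the pathway rose too: Socs3, which blocks the receptor's kinases, lay at 4.77 and 4.15 at 50 lux and at 9.48, 9.86 and 10.91 at 2500 lux. Ptpn2, a phosphatase of STAT proteins, went from 10.47 and 10.53 to 11.25, 11.42 and 11.41 (1.81-fold, adjusted p = 0.00029). Bcl3, a nuclear partner of NF-kappaB that STAT3 can induce, rose at least 12.1-fold, from 2.26 and 2.87 to 7.09, 7.41 and 8.30 (adjusted p = 2.8e-07).

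Among 37 measured C/EBP, KLF and stress transcription factors 14 rose (37.8%, 8 held) and 3 fell (8.11%, 1 held). Their median log2 change was 0.42 against 0.04 for all genes. Of the 37, 5 lay at or below log2 4 on both 50 lux arrays. Cebpb, a relative of the strongly induced Cebpd, had log2 levels of 5.25 and 4.67 at 50 lux and of 6.91, 7.17 and 7.26 at 2500 lux (4.43-fold, log2 2.15, SE 0.21, adjusted p = 2.6e-05). Klf10, a zinc finger factor induced by TGF-beta, rose 3.51-fold (adjusted p = 0.00035). Litaf, named for its induction by lipopolysaccharide, rose at least 4.57-fold (1 of its 2 arrays at 50 lux was above log2 4), and the ETS factor Elk3 rose at least 2.92-fold, with adjusted p of 0.00016 and 0.00040. Against this direction Etv5, an ETS factor downstream of FGF signalling, fell 2.21-fold, from 8.37 and 8.71 to 7.58, 7.04 and 7.57 (log2 -1.14, SE 0.17, adjusted p = 0.00054). Dusp4, a phosphatase that inactivates MAP kinases and is induced by them, fell 2.43-fold in the same samples, from 8.75 and 8.88 to 7.66, 7.79 and 7.15 (log2 -1.28, SE 0.21, adjusted p = 0.0012). It was the held gene among 27 measured MAP kinase feedback genes, of which 2 rose and 2 fell (7.41% each, against 8.93% and 5.13% of all genes).

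Of 25 measured NF-kappaB factors, interferon regulatory factors and their inhibitors 14 rose (56.0%) and 1 fell. Of these, 9 rises and the fall held, and the median of the list was 0.76. On both 50 lux arrays 5 of the 25 lay at or below log2 4. Irf9, the DNA-binding part of the interferon-activated STAT complex, had log2 levels of 6.54 and 6.04 at 50 lux and of 8.62, 9.03 and 9.49 at 2500 lux (6.78-fold, log2 2.76, SE 0.27, adjusted p = 2.2e-05). Irf1 rose 5.39-fold, from 5.17 and 4.01 to 6.56, 6.89 and 7.61 (adjusted p = 0.00037), and Irf7 rose at least 5.01-fold (adjusted p = 3.9e-05). The 2 arrays at 50 lux differed by 1 log2 unit or more for Irf1, but neither reached the 2500 lux range, as is required of a held gene. Tnip2, an inhibitor of NF-kappaB that binds the A20 protein, rose 2.40-fold (adjusted p = 0.00031). Tnfaip3, which encodes A20 itself, moved the other way, from 11.07 and 11.08 to 10.30, 10.08 and 9.95 (fell 1.96-fold, log2 -0.97, SE 0.11, adjusted p = 8.7e-05).

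Targets of these factors were among the 40 largest held rises. The guanylate-binding proteins, GTPases of the interferon response, included Gbp6 at 2.99 and 3.51 at 50 lux and at 7.18, 7.75 and 8.44 at 2500 lux, at least 13.8-fold higher (adjusted p = 8.6e-07). Gbp2b was at least 9.25-fold higher and Gbp3 at least 6.70-fold. The immunity-related GTPases Igtp and Irgm1 rose at least 9.56-fold and 7.18-fold, with adjusted p of 6.6e-05 and 8.0e-06. Oasl2, Usp18 and Rtp4, which are interferon-induced, were at least 5.81-fold, 3.30-fold and 5.24-fold higher. Ifitm3, a membrane protein that restricts viral entry, went from 5.49 and 5.56 to 9.13, 9.76 and 9.65 (15.9-fold, adjusted p = 3.0e-07). Psmb8 and Psmb10, subunits that replace standard ones in the immunoproteasome, rose at least 5.09-fold and 2.71-fold (adjusted p = 6.4e-06 and 0.0039). Of all 41 measured proteasome genes 7 rose (17.1%) and none fell, with a median of 0.24, and those 2 were the held ones.

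The bases just before the start of genes in these groups show letters that these factors are known to bind. Stretches of the RefSeq promoter windows (GRCm38.p6) are shown for genes picked, after their values were seen, from the held genes with a match; capitals mark the matched letters. Matches were sought on both strands in the 250 bases before each gene's annotated start. The STAT letters TTCNNNGAA stand before 4 genes that rose: Socs3 at chr11:117969467-117969565 (minus strand), Nupr1 at chr7:126625545-126625643 (minus strand), Irf1 at chr11:53769879-53769977 (plus strand) and Steap4 at chr5:7960311-7960409 (plus strand).
Socs3: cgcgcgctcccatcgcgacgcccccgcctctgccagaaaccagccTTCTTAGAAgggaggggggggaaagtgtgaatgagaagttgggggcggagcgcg
Nupr1: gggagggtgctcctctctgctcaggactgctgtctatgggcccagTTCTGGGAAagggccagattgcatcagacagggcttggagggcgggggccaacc
Irf1: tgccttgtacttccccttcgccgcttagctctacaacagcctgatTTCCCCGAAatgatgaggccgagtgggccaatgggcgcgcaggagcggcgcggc
Steap4: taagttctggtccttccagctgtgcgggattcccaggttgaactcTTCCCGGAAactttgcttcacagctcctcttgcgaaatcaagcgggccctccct

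The interferon response letters (GAAA, 2 bases of any kind, then GAAA), or their reverse complement, stand before Bst2 at chr8:71537542-71537641 (minus strand), Irgm1 at chr11:48871421-48871489 (minus strand) and Gbp2b at chr3:142594665-142594764 (plus strand). In Bst2 and Irgm1 2 copies overlap and are capitalised together. The same Bst2 window also holds the STAT letters, which run into the first interferon copy.
Bst2: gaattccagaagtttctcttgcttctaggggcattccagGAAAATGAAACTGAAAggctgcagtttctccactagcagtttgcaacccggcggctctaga
Irgm1: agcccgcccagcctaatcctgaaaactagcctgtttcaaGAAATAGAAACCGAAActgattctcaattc
Gbp2b: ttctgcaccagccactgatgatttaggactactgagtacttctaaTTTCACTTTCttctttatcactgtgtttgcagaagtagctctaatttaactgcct

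The letters TAATCC, bound by the photoreceptor factors CRX and OTX2, stand before 3 genes that fell: Cngb1 at chr8:95306586-95306655 (minus strand), Samd11 at chr4:156255359-156255454 (minus strand, reverse complement of the letters) and Rabgef1 at chr5:130187110-130187179 (plus strand).
Cngb1: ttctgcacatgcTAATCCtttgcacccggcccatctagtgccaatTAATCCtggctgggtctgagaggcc
Samd11: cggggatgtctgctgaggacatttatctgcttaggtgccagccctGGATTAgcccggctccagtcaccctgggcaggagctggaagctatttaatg
Rabgef1: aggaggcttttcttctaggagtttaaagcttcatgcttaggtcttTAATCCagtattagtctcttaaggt

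Windows were found for 297 of the 372 held rises (385 windows, since some genes have several starts) and for 113 of the 136 held falls (161 windows). The STAT letters were in 10.1% of windows of held rises, 6.21% of windows of held falls and 5.65% of windows of all genes tested. The interferon letters were in 6.23%, 1.24% and 2.33%, in the same order. TAATCC was in 6.75%, 8.70% and 5.14%. Of 3 further motifs, the AP-1 letters TGANTCA were in 7.79%, 6.83% and 4.13%, the C/EBP letters TTGCNNAA in 7.27%, 6.21% and 7.10%, and the NF-kappaB letters GGGANTTCC in 0.779%, 1.24% and 1.85%. Across all 32851 windows of the table the 6 shares were 7.02% (STAT), 2.98% (interferon), 6.25% (TAATCC), 6.75% (AP-1), 9.56% (C/EBP) and 1.43% (NF-kappaB). These shares are descriptions and were not tested, and a match does not show that a factor bound there.

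Among 17 measured TNF and interleukin receptors and their ligands 6 rose (35.3%; 3 held) and 1 fell (5.88%). Tnfrsf1a, the main TNF receptor, rose 3.55-fold, from 5.02 and 4.98 to 6.29, 6.85 and 7.34 (adjusted p = 0.00018). Tnfrsf12a, the receptor of the cytokine TWEAK, rose 2.92-fold (adjusted p = 0.00025). Csf1, the growth factor of macrophages and microglia, rose 4.53-fold, from 4.28 and 4.38 to 5.97, 6.68 and 6.89 (adjusted p = 0.00015). None of the 50 lux arrays reached the 2500 lux range of these 3 genes, as is required of held genes.

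Of 24 measured growth factors and neurotrophic ligands 5 rose (20.8%; 4 held) and 2 fell (8.33%; 1 held). Besides Edn2, the chemokine gene Cxcl12 went from 4.60 and 4.62 to 6.64, 6.64 and 7.05 (4.49-fold, log2 2.17, SE 0.24, adjusted p = 5.9e-05). Pros1, which encodes protein S, a ligand of the receptor Mertk, rose 4.30-fold (log2 2.10, SE 0.15, adjusted p = 1.7e-06). Igf2, an insulin-like growth factor, fell 2.32-fold, from 8.18 and 8.14 to 7.21, 7.11 and 6.51 (adjusted p = 0.00075). Nudt6 had one of the smallest p-values of the comparison, with log2 levels of 6.46 and 6.36 at 50 lux and of 10.92, 10.60 and 11.04 at 2500 lux (21.8-fold, log2 4.45, SE 0.14, adjusted p = 2.7e-09). Nudt6 is transcribed from the strand opposite to Fgf2, a neurotrophic growth factor, and its transcripts overlap those of Fgf2 and Fgf2os. Fgf2 itself was at least 1.97-fold higher (2.26 and 2.28 against 4.90, 4.70 and 5.34, adjusted p = 8.3e-05) and Fgf2os at least 5.37-fold higher (adjusted p = 0.00031), so the transcript that each probe set reads is uncertain. When values below log2 4 were raised to 4, the adjusted p of Fgf2 was 0.059.

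Receptors moved in 1 direction: of 23 measured growth factor and endothelin receptors 7 rose (30.4%), 4 of them held, and none fell. Of the 23, 3 lay at or below log2 4 on both 50 lux arrays. Axl, a receptor tyrosine kinase that takes part in clearing dying cells, lay at 3.30 and 3.22 at 50 lux and at 6.19, 5.98 and 7.12 at 2500 lux, at least 5.37-fold higher (adjusted p = 8.0e-06). Ednrb, the endothelin receptor of Müller glia and astrocytes, rose 4.48-fold, from 5.98 and 6.14 to 7.53, 8.32 and 8.82 (adjusted p = 0.00034). That is its brightest probe set, and its other probe sets had log2 changes of 0.31 and 0.23 that did not pass (adjusted p = 0.54 and 0.68). Ddr1, a collagen receptor, rose 1.54-fold (adjusted p = 0.0010) and Kdr, a receptor of VEGF, 2.32-fold (adjusted p = 0.00013). The other probe sets of Ddr1 had log2 changes of 0.01, 0.17, 0.45 and 0.52, of which only the last passed. Pecam1 and Cdh5, which define endothelial cells, lay at or within 0.01 of the lowest value of the arrays on all 5 of them, so Kdr rose without a measurable level of either. In the smaller lists Tgfb2 rose 2.11-fold (4 of 28 measured TGF-beta and BMP genes rose, 14.3%, and none fell), and Ndp, which encodes the Wnt receptor ligand norrin made by Müller glia, rose 3.74-fold (3 of 23 Wnt genes rose, 13%, and none fell). Hey2, a Notch target, rose 1.99-fold, while 1 other of the 20 Notch genes fell and did not hold; 5% in each direction is near or below the shares of all genes.

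Leaving aside the lists of sample makeup, the list with the largest share of rises was that of calcium-binding S100 proteins and annexins. Of 14 measured members 11 rose (78.6%), 10 held and none fell, with a median log2 change of 1.58. On both 50 lux arrays 3 of the 14 lay at or below log2 4. S100a6 lay at 5.16 and 4.23 at 50 lux and at 10.54, 10.81 and 11.40 at 2500 lux (74.9-fold, log2 6.23, SE 0.31, adjusted p = 8.3e-08). The annexins bind membrane phospholipids in the presence of calcium. Anxa2 went from 5.46 and 5.03 to 7.12, 7.27 and 7.61 (4.23-fold, adjusted p = 0.00011), Anxa4 rose 3.85-fold and Anxa5, which binds phosphatidylserine on dying cells, 2.18-fold (adjusted p = 0.00014 and 0.00015). Anxa3 was at least 1.03-fold higher, since its 2500 lux arrays lay at 3.93, 4.01 and 4.21, and it lost the threshold when values below log2 4 were raised to 4.

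Of 46 measured genes of intermediate filaments and the actin cytoskeleton 20 rose (43.5%), 10 held and none fell, with a median of 0.53. At 50 lux 4 of the 46 lay at or below log2 4 on both arrays. Gfap, the filament of reactive glia, was equal on the 50 lux arrays (5.09 on each) and lay at 7.09, 8.24 and 8.50 at 2500 lux (7.24-fold, adjusted p = 0.00015). Vim, its partner in Müller glia, went from 11.45 and 11.48 to 13.26, 13.52 and 13.51. Msn, which encodes moesin, a link between actin and the membrane, rose 3.57-fold with little spread (6.82 and 6.64 against 8.42, 8.61 and 8.66; SE 0.12, adjusted p = 8.0e-07). Tagln2 and Cnn3, which bind actin filaments, rose at least 6.63-fold and 1.88-fold. Tubb6, a tubulin induced in injured neurons, was at least 8.23-fold higher (3.34 and 3.14 against 6.61, 6.48 and 8.04, adjusted p = 3.4e-05), and Tnnt2, a troponin of heart muscle, at least 7.99-fold (2.69 and 3.00 against 6.53, 7.11 and 7.35, adjusted p = 4.7e-07). The array of replicate 3 was highest at 2500 lux for Gfap, Tubb6 and Tnnt2.

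**Figure D2:**
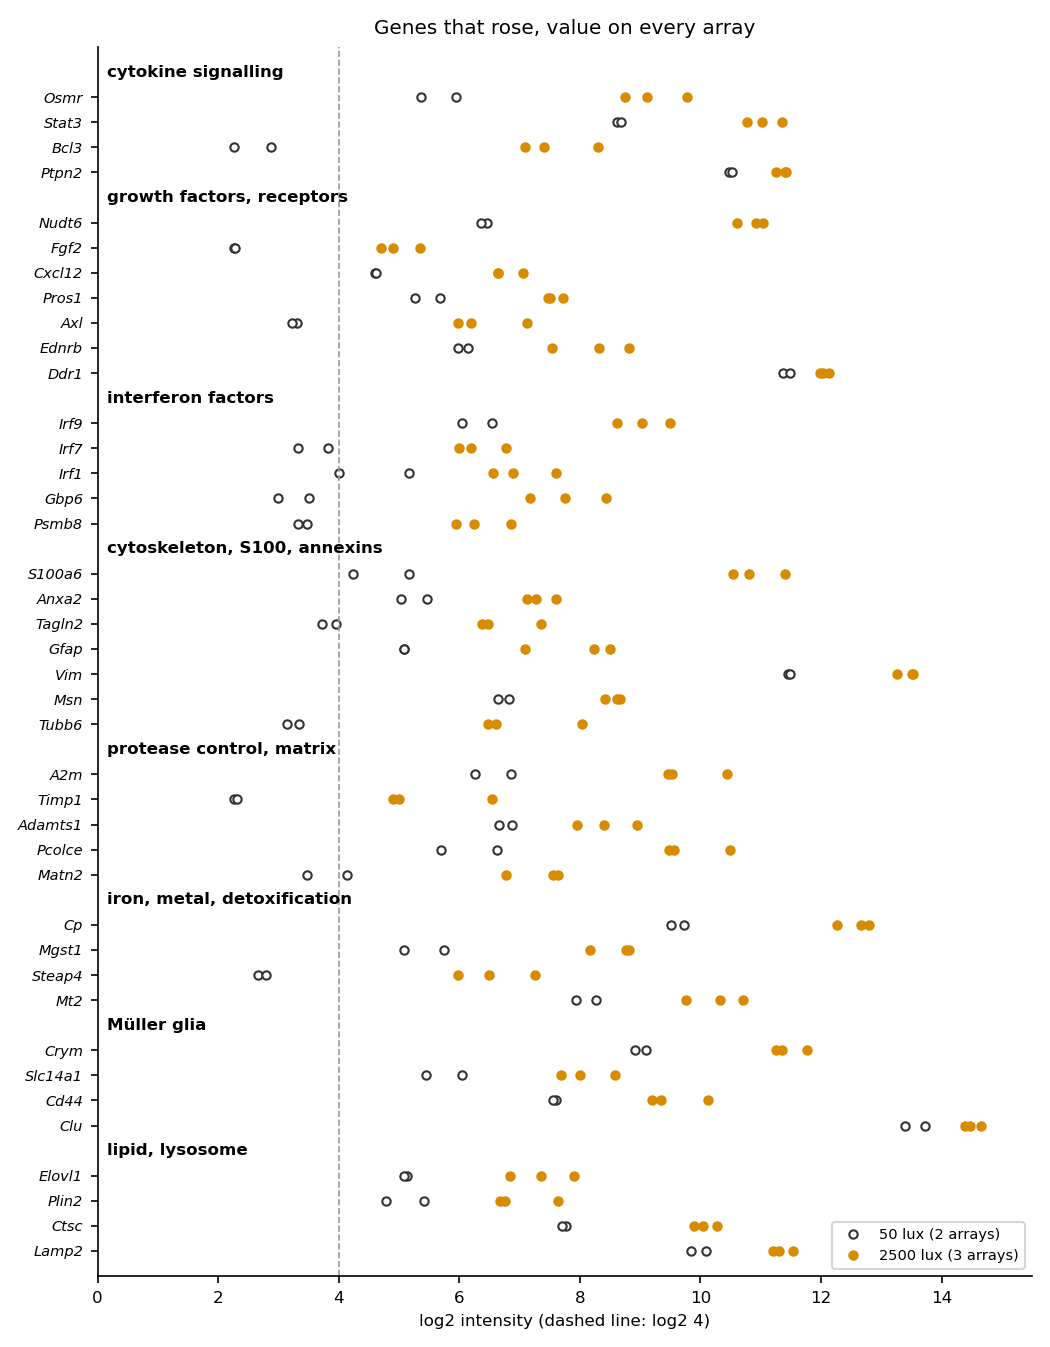
Each row is 1 gene that rose and held, grouped by role, and each point is its log2 intensity on 1 array; open circles are the 2 arrays at 50 lux and filled circles the 3 arrays at 2500 lux. No open circle reaches the filled circles of its row, and genes such as Fgf2, Timp1 and Bcl3 start left of the dashed line at log2 4.

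Enzymes and inhibitors of the matrix also rose: of 26 measured matrix proteases and inhibitors 12 rose (46.2%), 6 held and none fell. At 50 lux 4 of the 26 lay at or below log2 4 on both arrays, so the filter partly sets this share. A2m, a broad protease inhibitor of plasma, lay at 6.85 and 6.26 at 50 lux and at 9.46, 9.53 and 10.44 at 2500 lux (9.55-fold, log2 3.26, SE 0.29, adjusted p = 1.0e-05). Timp1, which inhibits matrix metalloproteinases, was at least 2.80-fold higher (adjusted p = 0.00036). Adamts1, a protease that cleaves proteoglycans, rose 3.18-fold (6.87 and 6.66 against 7.96, 8.94 and 8.40, adjusted p = 0.0011). Pcolce, which speeds the cleavage of procollagen, rose 12.8-fold and Matn2, a matrilin of the matrix network, at least 9.52-fold (adjusted p = 6.1e-06 and 7.1e-05). Of 20 integrins and leukocyte adhesion molecules 6 rose (30%), 3 held and none fell, among them the hyaluronan receptor Cd44 (3.92-fold, adjusted p = 0.00018) and Cd47, the signal that restrains phagocytes (1.82-fold, adjusted p = 0.00062).

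The collagens split. Of 36 measured collagens, laminins and matrix glycoproteins 5 rose (13.9%; 1 held) and 4 fell (11.1%; 3 held), with a median of 0.12. Col4a3 and Col4a4, chains that assemble with each other in basement membranes, fell together. Col4a3 went from 7.45 and 7.11 to 5.13, 4.62 and 4.10 (6.34-fold lower, log2 -2.67, SE 0.32, adjusted p = 0.00013). Col4a4 went from 7.66 and 7.42 to 5.91, 5.74 and 5.49 (3.55-fold lower, log2 -1.83, SE 0.33, adjusted p = 0.0031). Col9a1, a collagen of vitreous and cartilage, fell 2.68-fold, from 10.05 and 10.18 to 8.84, 8.85 and 8.38 (adjusted p = 0.00014). Col11a1, a fibrillar collagen, rose 2.41-fold (adjusted p = 0.0010), and Fndc1, a fibronectin type III protein outside the list, fell 4.42-fold (adjusted p = 0.00016).

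Genes of photoreceptor disc and outer segment structure fell widely, mostly by small amounts. Of 19 measured genes of disc and outer segment structure 13 fell (68.4%, against 5.13% of all genes), none rose, and the median was -0.62. Of these 13 only Prcd and Cabp4 held. Prcd, a small protein of the disc membrane, went from 11.89 and 11.81 to 11.24, 10.66 and 10.75 (1.96-fold lower, adjusted p = 0.0023). Cabp4, in the list but a calcium-binding protein of the photoreceptor terminal, went from 12.04 and 11.98 to 11.09, 11.07 and 10.97 (1.95-fold lower, log2 -0.96, SE 0.12, adjusted p = 0.00013). The other 11 lost the threshold when an array was left out or had groups that overlapped. With only the 5 wild-type arrays in the fit, 3 genes of the list fell.

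Of 27 measured genes of calcium feedback and guanylate cyclases 12 fell (44.4%), 3 held and none rose, with a median of -0.41. Cacna1f, the calcium channel subunit of the photoreceptor synapse, fell 2.12-fold (10.21 and 10.13 against 9.16, 9.12 and 8.98, adjusted p = 0.0031). Gucy2e, the retinal guanylate cyclase that restores cyclic GMP after light, was at 4.92 and 5.07 at 50 lux and at 3.01, 3.65 and 3.35 at 2500 lux. Slc17a7, the glutamate transporter that loads synaptic vesicles of photoreceptors and bipolar cells, fell 2.89-fold (10.32 and 10.30 against 8.47, 8.84 and 9.03, adjusted p = 0.0027), and it was the held gene among 40 synaptic vesicle genes, of which 2 rose (5%) and 4 fell (10%). Kcnj14, a potassium channel, fell 2.00-fold with the 3 arrays at 2500 lux at 10.86, 10.80 and 10.88 (adjusted p = 0.00044). Ppef2, a phosphatase of photoreceptors, fell 2.55-fold from 10.65 on both 50 lux arrays (adjusted p = 8.4e-05). Among 46 cilium genes 5 fell (10.9%) and 1 rose (2.17%): Cc2d2a, a transition zone protein, fell 1.84-fold and held, and Ift57, an intraflagellar transport protein, rose 2.32-fold (8.48 and 8.28 against 9.31, 9.63 and 9.84, adjusted p = 9.8e-05).

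Regulators of photoreceptor genes fell as well: of 19 measured photoreceptor transcription factors 6 fell (31.6%), 4 held and 1 rose without holding. Samd11, a repressor component found in rods, lay at 11.19 and 10.83 at 50 lux and at 9.55, 9.53 and 9.52 at 2500 lux (2.78-fold lower, log2 -1.48, SE 0.16, adjusted p = 4.7e-05). Esrrb, a nuclear receptor of rods, went from 10.97 and 10.94 to 9.85, 9.50 and 9.75 (2.39-fold lower, adjusted p = 0.00056). Prdm1, which steers precursors to photoreceptors and away from bipolar cells, fell 2.31-fold, and Otx2, a master factor of photoreceptors, fell 1.48-fold (adjusted p = 0.00055 and 0.0038). All 3 arrays at 2500 lux lay below both arrays at 50 lux for these 4 genes, as is required of held falls. Nxnl2, a relative of Nxnl1, held at 1.67-fold lower, while the fall of Nxnl1 (7.61 and 7.53 against 6.65, 6.84 and 5.83) did not hold, with an adjusted p of up to 0.17 when an array was left out.

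Of 23 genes of the visual cycle and retinoid metabolism 7 fell (30.4%), 3 held, and 2 rose without holding. Rlbp1, the retinaldehyde-binding protein of Müller glia and pigment epithelium, went from 12.56 and 12.38 to 11.21, 11.12 and 10.97 (2.59-fold lower, log2 -1.37, SE 0.12, adjusted p = 6.2e-06). Rdh12, a retinol dehydrogenase of photoreceptors, fell 1.73-fold, and Rxra, a retinoid receptor, fell 1.99-fold (adjusted p = 0.0037 and 0.00070). Markers of the pigment epithelium are given beside this list, with which they share 5 genes. Of 12 measured 2 fell and 1 rose, none held, and the median log2 change was -0.63. Their summed log2 level was 13.90 and 13.45 at 50 lux against 12.93, 13.20 and 13.61 at 2500 lux. That sum overlaps between the groups and follows mainly its brightest member, Ttr (13.28 and 12.82 against 12.10, 12.62 and 12.95). Rpe65, which defines that tissue, lay at 10.12 and 9.54 at 50 lux and at 7.95, 7.85 and 8.25 at 2500 lux (adjusted p = 0.036, and up to 0.25 with an array left out), and Best1 lay at the lowest value of the arrays on all 5. The part of this tissue in the fall of Rlbp1 was not tested.

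**Figure D3:**
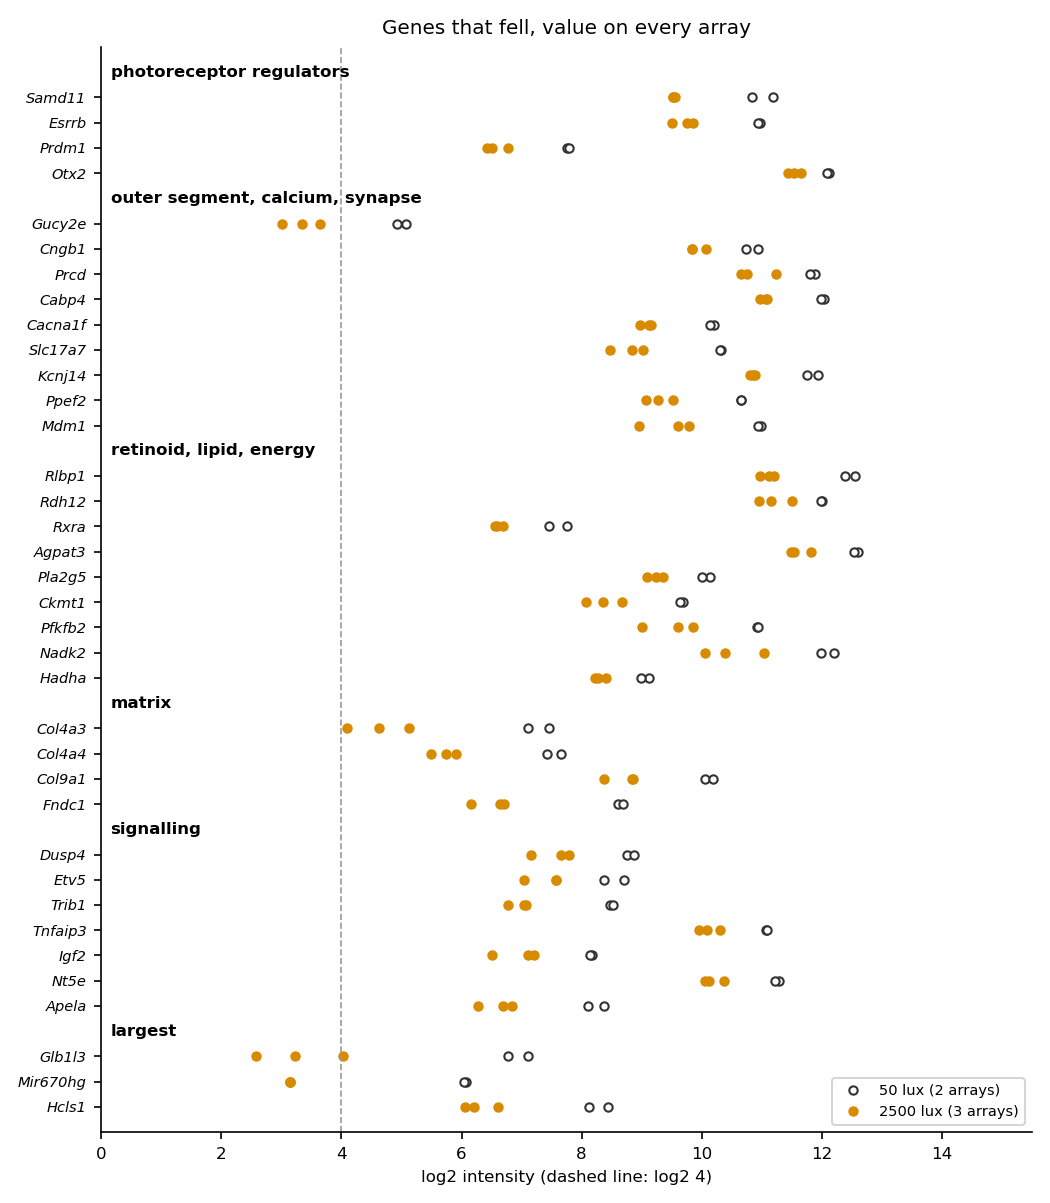
Each row is 1 gene that fell and held, grouped by role, and each point is its log2 intensity on 1 array; open circles are the 2 arrays at 50 lux and filled circles the 3 arrays at 2500 lux. The filled circles lie left of the open circles in every row, by 0.56 on the log2 scale for Otx2 and by 2.67 for Col4a3.

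Energy metabolism was read in a pair of lists. Of 71 measured genes of the mitochondrial respiratory chain 1 fell (1.41%), without holding, and none rose, with a median of -0.01 and changes from -0.57 to 0.44. Of 48 genes of the citrate cycle and mitochondrial fuel use 9 fell (18.8%; 2 held) and 4 rose (8.33%; none held), with a median of 0.00; 3 falls were left without replicate 1 of the 50 lux group. Ckmt1, the mitochondrial creatine kinase, went from 9.69 and 9.64 to 8.68, 8.08 and 8.36 (2.44-fold lower, adjusted p = 0.0011), and Hadha, an enzyme of fatty acid oxidation, fell 1.70-fold (adjusted p = 0.0025). Outside the lists, Pfkfb2, which sets the level of the glycolytic activator fructose 2,6-bisphosphate, fell 2.71-fold (10.92 and 10.93 against 9.85, 9.61 and 9.0, adjusted p = 0.0019). Nadk2, the mitochondrial NAD kinase, fell 3.05-fold (11.99 and 12.21 against 11.04, 10.38 and 10.05, adjusted p = 0.00064), and Tmlhe, an enzyme of carnitine synthesis, 2.79-fold (adjusted p = 0.0014).

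Lipid genes moved both ways: of 47 measured genes of fatty acid and membrane lipid synthesis 7 rose (14.9%) and 5 fell (10.6%), with 2 held in each direction. Elovl1, which elongates saturated fatty acids, rose 4.76-fold (5.14 and 5.08 against 6.84, 7.36 and 7.90, adjusted p = 0.00012), and Plin2, the coat of lipid droplets, rose 3.82-fold (adjusted p = 0.0014). Agpat3, an acyltransferase that helps to place docosahexaenoic acid in phospholipids, went from 12.60 and 12.53 to 11.82, 11.53 and 11.49 (1.93-fold lower, adjusted p = 0.0010), and the phospholipase Pla2g5 fell 1.80-fold (adjusted p = 0.0022).

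Of 44 genes of glutathione, NRF2 and detoxification 11 rose (25%), 7 held and 2 fell without holding. Cp, the copper ferroxidase ceruloplasmin, went from 9.51 and 9.73 to 12.26, 12.67 and 12.79 (7.72-fold, log2 2.95, SE 0.17, adjusted p = 2.7e-07). Among its other probe sets, those with log2 changes of -0.25 and -0.13 did not pass, and the rest rose by 3.3 to 4.14. Mgst1, a membrane glutathione transferase, rose 8.99-fold (5.74 and 5.09 against 8.17, 8.77 and 8.81, adjusted p = 4.9e-06), and Steap4, a metalloreductase, at least 5.95-fold (adjusted p = 7.5e-06). The metallothionein Mt2 and the cytochrome Cyp1b1 rose 4.48-fold and 3.88-fold. Aldh1l1, a folate enzyme of astrocytes and Müller glia, rose 3.96-fold (adjusted p = 0.00022) and was the held gene among 31 genes of amino acid and one-carbon metabolism, of which 3 rose (9.68%) and none fell.

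Of 41 cytosolic ribosomal protein genes 2 rose (4.88%), Rps6 and Rpl27a, and neither held. Of 43 genes of ribosome assembly 7 rose (16.3%) and none fell, of which Noc4l held (1.97-fold, adjusted p = 0.00064). Of 40 translation factors and tRNA synthetases 6 rose (15%) and none fell, of which Eif4ebp1, a translation repressor, held at least 3.60-fold higher (adjusted p = 0.0042) with a wide spread at 2500 lux (4.95, 5.82 and 6.77). The other probe set of Eif4ebp1 had a log2 change of 0.66 that did not pass (adjusted p = 0.051). Of 51 lysosome and autophagy genes 11 rose (21.6%), 6 held and none fell. The cathepsins, lysosomal proteases, included Ctsc (7.77 and 7.71 against 9.90, 10.05 and 10.27; 5.03-fold, adjusted p = 4.1e-06), Ctsh (2.91-fold) and Ctsl (1.77-fold), and the membrane protein Lamp2 rose 2.61-fold (adjusted p = 5.6e-05). Of 48 trafficking genes 8 rose (16.7%, 2 held) and 1 fell (2.08%). Copb2, a coat protein of Golgi vesicles, rose 1.61-fold and Rab31 at least 2.27-fold. The other probe set of Copb2 had a log2 change of 0.3 that did not pass (adjusted p = 0.062). Of 57 genes for histones, chromatin regulators and splicing 2 rose (3.51%) and 1 fell (1.75%). The rise that held was that of Neat1, a long RNA that builds nuclear paraspeckles, from 7.56 and 7.68 to 9.12, 9.28 and 9.37 (3.11-fold, adjusted p = 0.00012). Of 29 cell cycle genes 8 rose (27.6%; 2 held) and 1 fell; Mcm4, a subunit of the replication helicase, rose 2.15-fold (adjusted p = 0.0010), and Tubb6 was the other held member.

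Müller glia genes outside the filaments moved in both directions: of 32 measured genes of Müller transport and homeostasis 9 rose (28.1%; 5 held) and 5 fell (15.6%; 1 held, Rlbp1). Crym, a thyroid hormone binding protein, went from 9.10 and 8.92 to 11.26, 11.36 and 11.77 (5.47-fold, adjusted p = 8.0e-06). Slc14a1, a urea transporter, rose 5.08-fold (adjusted p = 6.6e-05), and Clu, a secreted chaperone, rose 1.92-fold from 13.73 and 13.39 to 14.39, 14.47 and 14.65. Of 40 genes of axon regeneration and neuronal injury 10 rose (25%; 5 held) and 3 fell (7.5%) without holding, among them the adhesion molecule Chl1 (6.01 and 5.62 against 8.56, 8.83 and 9.15; 8.16-fold, adjusted p = 1.8e-06) and the semaphorin receptor Nrp1 (2.87-fold, adjusted p = 0.00040). Transmitter receptors and neuropeptides gave no held change in 35 and 24 measured genes. Of 47 potassium, sodium and chloride channels and pumps 3 rose and 3 fell (6.38% each, near the shares of all genes): Clic1 and Clic4, of the chloride intracellular channel family, rose 3.87-fold and 2.26-fold, and Kcnh1 rose 2.61-fold.

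Of 24 genes of iron handling, complement and phagocytic receptors of myeloid cells 13 rose (54.2%, 6 held) and 1 fell, with a median of 0.98. On both 50 lux arrays 9 of the 24 lay at or below log2 4. These passed the filter through brighter arrays of the series, so the share of rises and the median are partly set by that filter. Lgals1, a galactoside-binding protein, rose 4.98-fold (8.05 and 7.67 against 9.85, 9.81 and 10.87, adjusted p = 0.00032), and Cfi, a protease that inactivates complement, rose at least 6.06-fold (2.92 and 3.32 against 6.65, 6.62 and 6.53, adjusted p = 1.1e-05). Hcls1, an actin regulator of blood cells, went against the list, from 8.44 and 8.12 to 6.20, 6.61 and 6.06 (3.97-fold lower, adjusted p = 0.00038). Of the genes that define microglia and macrophages, Cd68, a lysosomal protein of phagocytes, rose at least 2.31-fold (2.21 and 3.13 against 4.83, 5.12 and 5.67, adjusted p = 0.00015). Aif1 (2.60) and Cx3cr1 (4.19 to 4.23) gave near constant values that show no direction, Csf1r had a log2 change of 0.09 (SE 0.36), and C1qa, which did not hold, rose by 1.29 (adjusted p = 0.032).

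The list chart shows how these groups stand to all genes. Outer segment, calcium feedback, photoreceptor factor and visual cycle lists lie on the side of falls, and S100 proteins, NF-kappaB and interferon factors, proteases, cytoskeleton and gp130 genes on the side of rises.

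**Figure D4:**
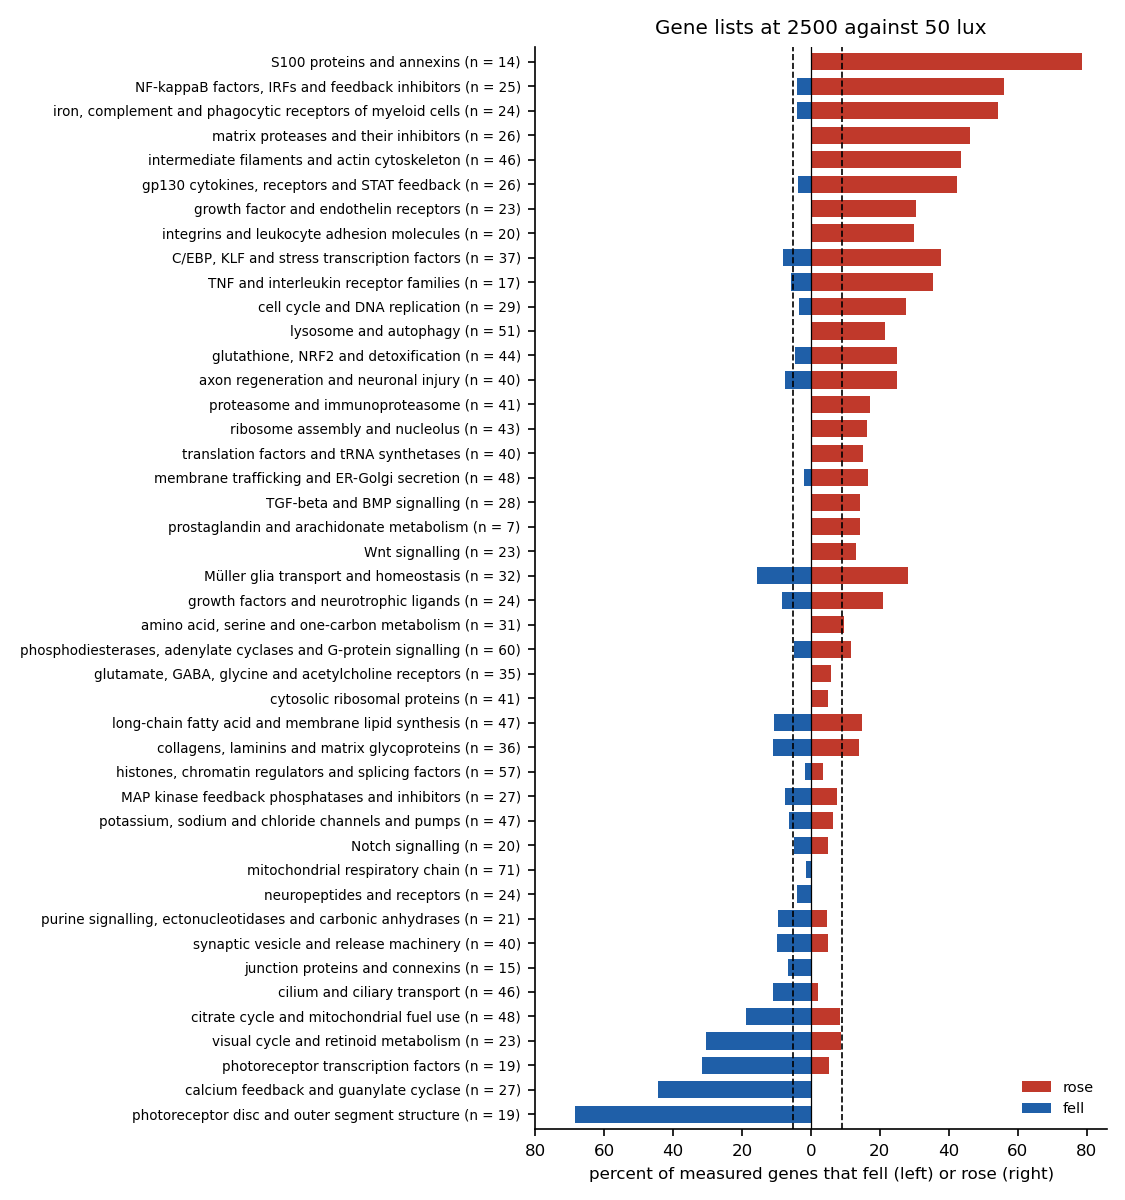
Each bar gives, for 1 list with n measured genes, the percent that rose (red, right) and fell (blue, left) at an adjusted p under 0.05; the dashed lines mark the shares among all genes tested, 8.93% and 5.13%. S100 proteins and annexins (78.6% rose) and disc and outer segment structure (68.4% fell) stand at the ends, and the respiratory chain (1.41% fell, none rose) has the shortest bar.

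Several of the largest held changes lay outside the lists. Nupr1, a small stress-induced nuclear protein, rose at least 20-fold (3.17 and 2.97 against 7.58, 8.54 and 8.84, adjusted p = 2.6e-06). Lad1, a protein of epithelial anchoring filaments, rose at least 7.61-fold with a spread of over 2 log2 units at 2500 lux (5.90, 6.87 and 8.01). Lrrc2 went from 7.57 and 7.60 to 10.76, 10.83 and 11.12 (9.96-fold, SE 0.16, adjusted p = 6.7e-08). Spidr, a scaffold of DNA repair, rose at least 9.28-fold, and Mvp, the major vault protein, at least 4.77-fold. Among the falls Glb1l3, a beta-galactosidase-like protein, was the largest, from 6.78 and 7.10 to 4.02, 3.22 and 2.57 (at least 7.62-fold lower, with 1 of 3 arrays at 2500 lux above log2 4, adjusted p = 6.1e-05). Mir670hg, a microRNA host transcript, was at 6.07 and 6.04 at 50 lux and at 3.15 on each array at 2500 lux, at least 4.15-fold lower. Trib1, a pseudokinase that promotes breakdown of C/EBP proteins, fell 2.89-fold (8.47 and 8.52 against 7.07, 6.77 and 7.04, adjusted p = 3.6e-06). Apela, a peptide ligand of the apelin receptor, fell 3.11-fold (adjusted p = 0.0017). In the list of purine signalling, where 1 of 21 rose (4.76%) and 2 fell (9.52%), Nt5e, which forms adenosine from AMP, held at 2.10-fold lower (adjusted p = 5.6e-05).

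The 3 arrays at 2500 lux differed in the size of the response. Over the 975 risen genes the median difference from the 50 lux mean was 0.77, 0.90 and 1.01 on replicates 1, 2 and 3, and over the 560 fallen genes it was -0.65, -0.74 and -0.79. Among the 372 held rises replicate 3 was the highest in 285 and replicate 1 the lowest in 273. Over all genes the 3 medians were 0.04, 0.03 and 0.05, and the median intensities of the arrays were 15.6, 15.4 and 15.8, highest on replicate 3 as well; the part of overall brightness in the order was not tested. Y-linked Eif2s3y lay at the lowest value on replicate 1 of both groups and at 9.85, 8.83 and 7.37 on the other 3 arrays. X-linked Xist lay at 12.20 and 12.04 on replicate 1 of the 2 groups and at 10.03, 9.88 and 11.49 on those 3 arrays. Both genes were thus bright on those 3 arrays, and whether these hold RNA of both sexes was not tested. With the Y-linked level as a covariate, a setting chosen after the values were seen, 918 genes rose and 519 fell. With only these 5 arrays in the fit, 482 genes rose and 208 fell, and Otx2, Prcd, Rdh12, Rabgef1, Etv5, Igf2 and Eif4ebp1 were among the held genes that no longer passed, with adjusted p from 0.050 to 0.096.

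**Figure D5:**
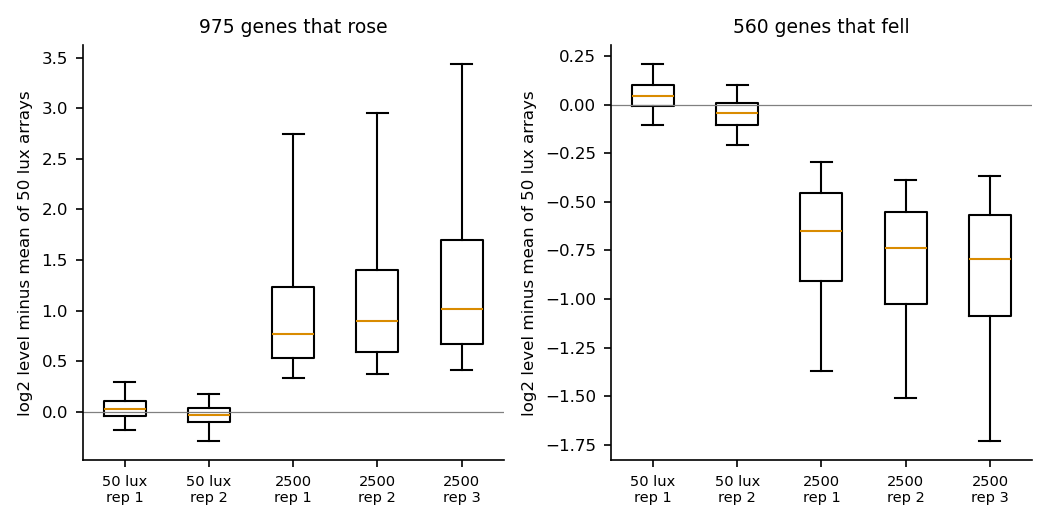
Boxes give the difference of each gene's log2 level from its mean over the 50 lux arrays, by array, for the 975 genes that rose (left) and the 560 that fell (right); the line is the median, the box the quartiles and the whiskers the 5th and 95th percentiles. Medians at 2500 lux run from 0.77 to 1.01 for rises and from -0.65 to -0.79 for falls, with replicate 3 farthest from the 50 lux arrays.

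Rod transcripts that define the retina were bright on every array, with Gnat1 at 14.31 and 14.37 at 50 lux and at 14.18, 14.08 and 14.08 at 2500 lux. Pde6b went from 14.27 and 14.30 to 13.79, 13.78 and 13.67 (log2 -0.54, adjusted p = 0.0037). The cone markers, given whether or not they held, were mixed. Log2 changes were -1.49 for Arr3 (adjusted p = 0.0044), -1.30 for Opn1sw (0.05), -0.75 for Gnat2 (0.024) and 0.07 for Opn1mw (0.89). Gnb3, a G-protein subunit, rose 2.18-fold and held (adjusted p = 0.00013). Lens crystallins gave no call among 12 measured; their summed log2 level was 9.97 and 9.68 at 50 lux and 11.00, 11.71 and 11.60 at 2500 lux, nearly all from Cryab, a small heat shock protein that retina also makes (log2 change 1.79, SE 0.74, adjusted p = 0.15). The globin Hba-a2, the measured blood marker, passed as higher (3.04 and 3.23 against 4.10, 3.65 and 3.74, adjusted p = 0.0086) and did not hold, with both means below log2 4, and Alas2, a haem enzyme of red cells, lay at the lowest value. The lens membrane protein Mip lay at the lowest value on all 5 arrays. Other probe sets on the same arrays gave a second reading of 460 risen and 260 fallen genes: 92.9% of their 764 and 93.9% of their 412 other probe sets had the same sign of change. Among the held named genes, 71 had 122 other probe sets, of which 120 had the same sign and 100 also passed. In Dclk1, a kinase of microtubules singled out after its values were seen, the brightest probe set had a log2 change of -0.47 (adjusted p = 0.044) that did not hold, while 4 other probe sets rose by 1.33, 1.92, 2.16 and 2.75.

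Raising the dose gave no further change that passed the test. Between 5000 and 2500 lux in wild-type retinas 0 genes passed in limma (859 at an unadjusted p under 0.05), except that 17 passed without replicate 1 of the 5000 lux group. Both responses share the 50 lux arrays, so they are given side by side only: against 50 lux, Osmr changed by 3.56 at 2500 lux and 3.40 at 5000 lux, S100a6 by 6.23 and 6.24, Cp by 2.95 and 2.77, Rlbp1 by -1.37 and -1.54, Col4a3 by -2.67 and -2.67, and Dusp4 by -1.28 and -0.78. In all 825 genes rose (7.56%) and 575 fell (5.27%) at 5000 lux. In retinas without Nxnl1 968 genes rose (8.87%) and 1477 fell (13.5%) at 2500 lux. The knockout group had more arrays at 50 lux than the wild-type group, so these counts do not compare the sizes of the 2 responses. The difference between the responses of the 2 genotypes, tested directly in limma, passed for 7 genes (0.0641%, with 1040 at an unadjusted p under 0.05). Nudt6 had the smallest p of these, with a log2 response of 4.45 in wild-type and 2.28 in knockout retinas (difference 2.16, SE 0.19, adjusted p = 0.0010), and the levels at 50 lux were 6.41 and 8.71.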

How the data were processed

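Log2 was taken of the intensity values deposited by the authors, which the submitters' processing notes tie to GCRMA, with no version. The array files give no depth, and the number of arrays limits the precision. Probe sets above log2 4 on at least 2 of 16 arrays were tested (23320 of 45037). A linear model with 1 mean for each of 6 groups was fitted to all 16 arrays (limma 3.58.1, R 4.3.3; moderated by empirical Bayes, 10 residual and 3.18 prior degrees of freedom) and Benjamini-Hochberg adjustment over all probe sets. Each gene was read by its brightest probe set with 1 symbol (34945 probe sets had 1 symbol, 932 several and 9160 none). Arrays were treated as unpaired. No array was a copy of another.

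Named genes are the 40 largest held rises, the 40 largest held falls, up to 5 held members of each list by p and every held member moving against its list's median; for a list without one, the 2 members with the smallest p; and all makeup markers. Members and lists were chosen with earlier results of these data known. Lists are described by counts, with no list test. A group with no array above log2 4 was set to 4 to give a bound on the fold. Promoter windows of 250 bases before gene starts are RefSeq's (GRCm38.p6). Simulated data had 200 of 23320 probe sets changed. On them the fit of this comparison recovered 25.4% of 1.5-fold, 71.0% of 2-fold and 96.4% of 4-fold changes. Of its calls there 5.68% were false. In the measured data 14.1% of genes passed, and deviations of same-numbered arrays correlated by up to 0.69. These rates therefore describe the simulated data only. Whether they hold for the measured arrays, dim genes included, was not tested.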

Additional observations from a re-analysis of the deposited data

Results flagged for a closer look

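The light response at 2500 lux differed between wild-type and knockout retinas, by the interaction term of the limma fit, in 7 genes. The difference (wild type minus knockout, log2) was 2.16 for Nudt6 (SE 0.19, adjusted p = 0.0010), 3.64 for Edn2 (SE 0.45, adjusted p = 0.010) and 2.05 for Cebpd (SE 0.31, adjusted p = 0.044). For these 3 genes the mean levels at 2500 lux were close in both genotypes (10.85 and 10.99 for Nudt6, 10.15 and 10.30 for Edn2, 11.70 and 12.00 for Cebpd). At 50 lux the knockout means were higher, 8.71 against 6.41 for Nudt6, 7.52 against 3.73 for Edn2 and 7.81 against 5.45 for Cebpd.

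The other four were chosen by this term alone, after their values were seen. Rnase4, a secreted ribonuclease, rose by 2.97 in wild-type retinas and had a change of 0.32 in knockout retinas (difference 2.66, SE 0.31, adjusted p = 0.0065), and Sox30, a transcription factor of the testis, had 3.19 and 1.80 (difference 1.39, SE 0.18, adjusted p = 0.018). Dnaaf4, a dynein assembly factor, differed by 1.31 (adjusted p = 0.044; 0.38 and -0.93), and Zfp469 by 1.82 (adjusted p = 0.047), with both wild-type means below log2 4. Nudt6 and Rnase4 stayed past the threshold with each array left out in turn; the other 5 did not.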

How the results depend on the processing

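Of 174 held genes that are named, 160 kept their direction and their side of the threshold in all 16 other settings that gave a value. Among these settings were the fits that left out each of the 5 arrays in turn. A held gene passes those by definition, so only the remaining settings could change its label. The counts of genes moved most with the arrays in the fit. With only the 5 wild-type arrays 482 genes rose and 208 fell, and with each array left out in turn the counts ran from 474 to 985 and from 171 to 543. Other scalings, filters, priors, weights and probe set rules gave 882 to 1220 rises and 543 to 712 falls. In their deviations from group means 21 of 36 same-numbered pairs of arrays correlated above 0.1 (-0.24 to 0.69) against 13 of 70 pairs of unlike number; the 50 and 2500 lux pairs had -0.06 and 0.07. Since not every pair passed 0.1, the numbers were not taken to pair the arrays. With the replicate number as a block 1136 genes rose, 632 fell, 0 differed between 5000 and 2500 lux, and 19 differed between genotypes in their response, against 7 without it. Leaving out 1 array gave 2 to 12 such genes, and 0 to 17 genes between 5000 and 2500 lux. The change of Dclk1 reversed to 0.93 when its probe sets were averaged. Fgf2, Anxa3, Efna1 and Etnppl lost the threshold when values below log2 4 were raised to 4, and 10 held genes, among them Otx2, Rdh12, Prcd, Etv5 and Igf2, lost it with only the 5 arrays. The cause was not tested.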
